A study of Mus musculus with 16 samples.

Results

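The genes described here are the nuclear-encoded genes of the mitochondrial respiratory chain and ATP synthase, taken as every mouse gene on the array whose symbol begins with Nduf, Sdha, Sdhb, Sdhc, Sdhd, Uqcr, Cox4i, Cox5, Cox6, Cox7, Cox8 or Atp5. The rule used names only, not values. It found 97 members among 37203 genes, and all 97 were among the 37149 genes tested. They comprised 76 subunits (36 of complex I, 4 of complex II, 8 of complex III, 11 of complex IV and 17 of complex V), 12 assembly factors, 8 isoforms of complex IV whose use is restricted to certain tissues or states, and Cox7a2l, a factor that joins complexes III and IV into supercomplexes. Cox7b2 and Cox8c were not well above background on any of the 16 arrays, Cox8b on 6 of them and Cox6a2 on 15, and the remaining members were measured on all 16.

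The study asked what the loss of the transcription factor Sp1, which binds GC-rich promoter motifs, does to mouse embryonic stem (ES) cells as they form blood. Sp1+/+ E14 cells and Sp1-/- cells, homozygous for a mutation whose Sp1 product has no DNA-binding domain, were both labelled as strain C57BL/6, and the samples held no second line of either genotype. From each genotype 4 populations were sorted: Flk1+ cells (Flk1 is the VEGF receptor encoded by Kdr) from embryoid bodies, and then, from blast culture of such cells, HE1 (hemogenic endothelium I, KIT+ Tie2+ CD41-), HE2 (hemogenic endothelium II, KIT+ Tie2+ CD41+) and progenitors (KIT+ Tie2- CD41+). Each of the 8 groups had 2 one-colour arrays, which the labels call independent biological replicates, so that the precision of every value is limited by 2 arrays a group.

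The respiratory chain passes electrons from NADH (complex I) and succinate (complex II) through ubiquinone and complex III to cytochrome c and oxygen (complex IV), and the proton gradient that complexes I, III and IV build drives ATP synthesis by complex V. Most of the subunits are made in the cytosol from nuclear genes and assembled in the inner mitochondrial membrane with the few encoded by mitochondrial DNA, with the help of assembly factors that are not part of the finished complex. Blood-forming cells that leave the endothelium are known to change how much they rely on glycolysis and on respiration, and several complex IV subunits have alternative isoforms that replace each other in muscle, testis or low oxygen.

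Each genotype filled a slide of its own, and the effects of slide and of genotype therefore cannot be told apart in any comparison between Sp1-/- and Sp1+/+ cells, whereas each step between populations lay within a slide. The share of spots well above background ran from 67.0 to 77.1% per array. Sp1 was at 12.14 to 12.56 (log2 intensity) on the Sp1+/+ arrays and at 9.03 to 10.29 on the Sp1-/- arrays, with no overlap, although where its probe lies relative to the deleted part was not examined. Of the sort markers, Tek (Tie2) was at 11.65 to 12.5 in HE1 and at 7.62 to 9.62 in progenitors, as sorted. Itga2b (CD41) was at 10.6 to 11.43 in HE1 and 11.95 to 12.68 in HE2, in the order of the sort. In Flk1+ cells Itga2b was at 7.37 to 8.3 and in progenitors at 11.41 to 11.96. Sp1-/- HE1 replicate 2 thus lay above the lowest Sp1+/+ progenitor array, although within each genotype HE1 and progenitors did not overlap. Kdr lay between 13.56 and 15.37 in every population. Kit differed between the genotypes in progenitors, at 13.21 and 12.89 in Sp1+/+ and 11.62 and 12.02 in Sp1-/- (limma, adjusted p = 0.03668). In HE2 Kit was at 13.27 and 12.75 against 12.75 and 13.04 and did not pass (adjusted p = 0.9164). The marker lists of other cell types moved too. The median of 7 erythroid markers was 13.83 and 14.66 in Sp1+/+ progenitors against 15.6 and 15.67 in Sp1-/- progenitors, and within Sp1+/+ HE1 it was 11.51 in replicate 1 and 7.55 in replicate 2. The median of 7 muscle markers was 9.79 and 9.33 in Sp1+/+ HE1 and 10.93 and 10.81 in Sp1-/- HE1, and 4 of the 7 were higher in Sp1-/- HE1 (4.35% of all genes were). Elsewhere the muscle markers that passed went both ways in Sp1-/- cells. Actc1 and Myl7 were higher and Myh6 lower in Flk1+ cells, Myl4 higher and Nkx2-5 lower in HE2, and Tnni1 higher and Nkx2-5 lower in progenitors. The part of erythroid or muscle cells in the results below was not tested. Because whole sorted populations were measured, more transcript per cell and more cells carrying it cannot be told apart.

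Along the course of differentiation in Sp1+/+ cells, the median over the 36 complex I subunits was 14.515 and 14.605 (log2 intensity) on the Flk1+ arrays. In HE1 it was 14.665 and 14.55, whereas HE2 gave 14.94 and 14.955 and progenitors 14.945 and 14.97. HE2 and progenitors therefore lay above Flk1+ cells and HE1 without overlap. The medians of complexes II, III, IV and V were likewise higher on both HE2 arrays than on both HE1 arrays, and the 12 assembly factors went from 11.58 and 11.555 in Flk1+ cells through 11.37 and 11.015 in HE1 to 11.725 and 11.47 in HE2. For Sp1-/- cells the complex I median was 14.68 and 14.52 in Flk1+ cells and 14.64 and 14.705 in HE1, with 14.78 and 14.75 for HE2 and 15.115 and 14.91 for progenitors. The median over all genes tested stayed between 7.43 and 7.47 on the 16 arrays.

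**Figure D1:**
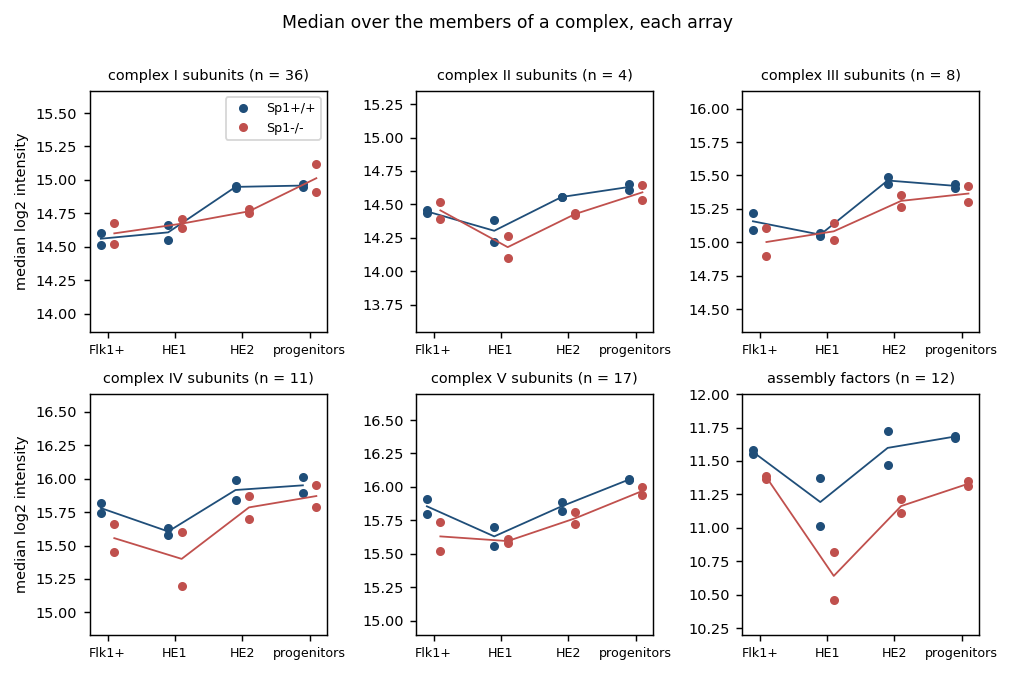
Median log2 intensity (vertical axis) over the subunits of each complex and over the assembly factors in the 4 populations (horizontal axis); each point is 1 array, blue Sp1+/+ and red Sp1-/-, and lines join the means of 2 arrays. In Sp1+/+ cells every HE2 array lies above every HE1 array in all 6 panels, while the complex I median of Sp1-/- cells is 14.78 and 14.75 in HE2 and 15.115 and 14.91 in progenitors.

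In the step from Flk1+ cells to HE1, 8 members rose and 11 fell in Sp1+/+ cells (limma, adjusted p of 0.05 or less over all genes; the array as a whole changed by 24.8%, 11.2% higher and 13.6% lower), so that the share of members changed, 19.6%, was below that of all genes. The largest fall was that of Ndufa4l2, a paralogue of Ndufa4 known as a target of the hypoxia-inducible factors. Its log2 intensity was 11.31 and 11.16 on the Sp1+/+ Flk1+ arrays, 6.92 and 7.17 in HE1, 7.25 and 7.08 for HE2 and 7.05 and 6.87 for progenitors. It was thus high in Flk1+ cells and low in the later populations, whose arrays ran from 6.87 to 7.25. The fall into HE1 was 18.3-fold (log2 difference -4.19 ± 0.16 SE, adjusted p = 3.445e-08). Among Sp1-/- arrays the values were 11.12 and 10.93 in Flk1+ cells and 7.26 and 7.74 in HE1, a fall of 11.5-fold (adjusted p = 1.118e-07). Whether the size of the fall differed between the genotypes was not tested. Ndufa4 itself, now counted as a subunit of complex IV, was at 14.44 and 14.59 in Sp1+/+ Flk1+ cells and 14.39 and 14.19 in HE1 and did not pass (adjusted p = 0.3415).

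Cox7a1, the heart and muscle isoform of subunit 7a, was low in HE1 alone. It was at 10.77 and 10.69 in Sp1+/+ Flk1+ cells, 8.97 and 8.78 in HE1, 10.39 and 10.22 for HE2 and 10.62 and 10.63 for progenitors. The fall into HE1 was 3.62-fold (adjusted p = 1.591e-05) and the rise into HE2 2.69-fold (adjusted p = 0.0006522). The Sp1-/- arrays went the same way, from 10.68 and 10.1 to 8.98 and 8.93 and back to 10.41 and 10.39, a fall of 2.70-fold (adjusted p = 8.755e-05) and a rise of 2.72-fold (adjusted p = 0.0002453). In both genotypes the fall and the rise passed with any single array of the comparison left out, and they share the HE1 arrays. The widely used isoform Cox7a2 lay at 14.79 and 14.77 in Sp1+/+ Flk1+ cells and at 14.55 and 14.41 in HE1, and did not pass (adjusted p = 0.3108).

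**Figure D2:**
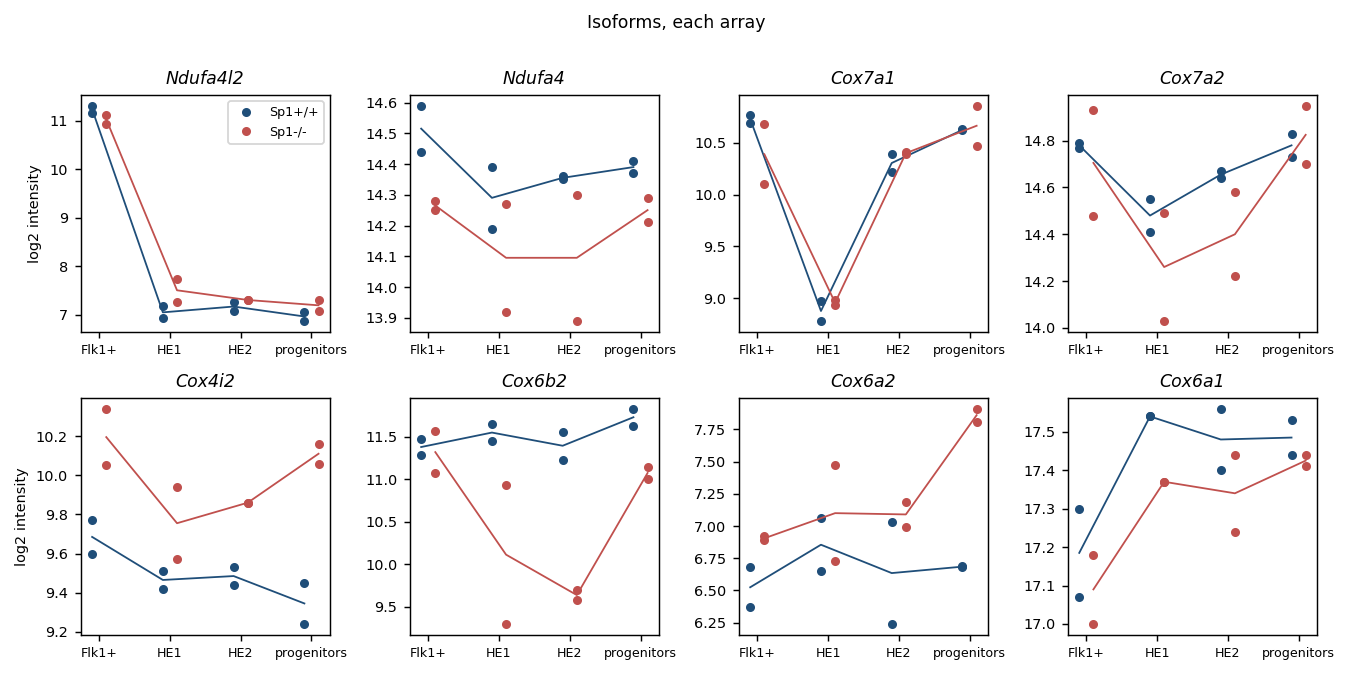
Log2 intensity (vertical axis, a separate scale in each panel) of isoforms of complex IV in the 4 populations (horizontal axis); each point is 1 array, blue Sp1+/+ and red Sp1-/-, and lines join the means of 2 arrays. Ndufa4l2 drops from about 11 to about 7 after Flk1+ cells in both genotypes, Cox7a1 dips in HE1 in both, and Cox6b2 is low in Sp1-/- HE2 at 9.58 and 9.7.

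Complex I subunits moved both ways in the same step. Ndufa8, an accessory subunit, rose from 12.45 and 12.61 to 13.76 and 13.6 in Sp1+/+ cells (2.22-fold, adjusted p = 0.0001519). Ndufa7, an accessory subunit of the peripheral arm, fell from 15.83 and 15.92 to 15.26 and 15.1 (1.62-fold, adjusted p = 0.0003134). Both also passed in the same direction in Sp1-/- cells, with adjusted p = 0.001418 for Ndufa8 and 2.822e-05 for Ndufa7. Of the other members with the largest rises, Ndufa3 rose by 0.505 ± 0.137 SE and Ndufs5 by 0.45 ± 0.121 SE on the log2 scale, but the call of Ndufa3 was lost without replicate 1 of either population (highest adjusted p = 0.146) and that of Ndufs5 without those or HE1 replicate 2 (highest adjusted p = 0.145). Neither rise passed with the 75th percentile scaling. Of the 12 assembly factors 0 rose and 4 fell in Sp1+/+ cells, where 11.2% of all genes rose and 13.6% fell. In Sp1-/- cells Sdhaf1 rose, and Ndufaf1, Ndufaf4, Ndufaf6, Sdhaf2 and Sdhaf4 fell. The same step in Sp1-/- cells had 6 members that rose and 19 that fell (28.6% of all genes changed, 12.6% higher and 16.0% lower). By the thresholds of the methods (unadjusted p of 0.01 and 2-fold) 3 members changed in Sp1+/+ cells (Ndufa4l2, Cox7a1 and Ndufa8; 8.55% of all genes) and 3 in Sp1-/- cells (Ndufa4l2, Cox7a1 and Cox6b2; 9.50% of all genes). Leaving out single arrays lowered the Sp1+/+ count of 19 to 10 without HE1 replicate 1 or Flk1+ replicate 1 and to 11 without HE1 replicate 2 or Flk1+ replicate 2, and the Sp1-/- count of 25 to 14 without HE1 replicate 2 or Flk1+ replicate 2. Scaling the scanner's processed signal by each array's 75th percentile gave 1 higher and 6 lower in Sp1+/+ cells, and in Sp1-/- cells 7 higher and 7 lower.

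From HE1 to HE2 the members moved one way: 20 of 97 rose and 0 fell in Sp1+/+ cells, where 5.67% of all genes rose and 5.03% fell. The share of members that rose was 20.6%, against 12.2% of the 5390 bright genes (mean log2 of 12 or more, a level that most members reached). The bright genes were not matched to the members: their median was 13.6 to 13.665 per array, against 14.57 to 15.09 for all members. The median of the assembly factors, 10.46 to 11.725, lay below that level. The median difference over the 76 subunits was 0.19 on the log2 scale, against 0.015 over all genes. Those that rose were 8 subunits of complex I, 1 of complex II, 3 of complex III and 2 of complex V, 5 assembly factors and Cox7a1, whereas 0 of the 11 complex IV subunits passed. The largest rises after Cox7a1 were in assembly factors of complex I. Ndufaf7, a methyltransferase that acts on a core subunit, was at 11.68 and 11.65 in HE1 and 12.52 and 12.41 in HE2 (1.74-fold, adjusted p = 0.001378). Ndufaf2, which helps to add the NADH-oxidising module, was at 12.25 and 12.36 and then at 13.07 and 12.9 (1.60-fold, adjusted p = 0.002265). Each stayed called with any 1 array of the comparison left out, but not in a fit to these 4 arrays alone (adjusted p = 0.0507 for Ndufaf7 and 0.0681 for Ndufaf2). Sdhd, a membrane anchor of complex II, rose by 0.365 ± 0.097 SE (adjusted p = 0.03521), and its call was lost with any 1 of the 4 arrays left out (highest adjusted p = 0.167).

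Without Sp1 17 members rose and 0 fell from HE1 to HE2, where 10.5% of all genes and 19.3% of the bright genes rose, so that the members' share, 17.5%, lay near that of the bright genes. Ndufaf7 rose 1.74-fold (adjusted p = 0.0006245) and Ndufaf2 1.45-fold (adjusted p = 0.004117), close to the values in Sp1+/+ cells. By the thresholds of the methods 1 member, Cox7a1, changed in either genotype (3.31% of all genes in Sp1+/+ and 5.60% in Sp1-/- cells). The counts moved with single arrays. In Sp1+/+ cells the count of 20 became 8 without HE1 replicate 1, 7 without HE1 replicate 2, 5 without HE2 replicate 1 and 10 without HE2 replicate 2. The Sp1-/- count of 17 became 28 without HE1 replicate 1 and 11 without any other single array of the comparison. None of the members fell under any of these settings or under the other scalings (0 lower throughout), and the median over the subunits was 0.369 in Sp1+/+ and 0.297 in Sp1-/- cells with the 75th percentile scaling. That scaling called 8 members in Sp1+/+ and 11 in Sp1-/- cells. The median over all genes with it was not set beside these medians. A shift of all genes therefore cannot be told apart from a rise of the members there.

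From HE2 to progenitors 0 of 97 members passed in Sp1+/+ cells by limma, where 3.04% of all genes changed (1.69% higher and 1.35% lower). In Sp1-/- cells 5 rose and 0 fell, where 7.38% of all genes rose and 7.98% fell. These 5 were Ndufa1 and Ndufa5 of complex I, Uqcrc2 of complex III, the assembly factor Ndufaf3 and Cox6b2, and were chosen for naming after their values were seen. Cox6b2 was the 1 member that reached the thresholds of the methods in Sp1-/- cells (4.99% of all genes), and 0 did in Sp1+/+ cells (1.74%). The Sp1+/+ count became 1 without HE2 replicate 1. The Sp1-/- count became 2 without HE2 replicate 1, 1 without HE2 replicate 2 and 0 without either progenitor array.

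Turning to the Sp1 genotype, 11 members were higher and 25 lower in Sp1-/- cells when the difference was averaged over the 4 populations, where 26.2% of all genes changed, 13.3% were higher and 13.0% lower. The members called lower were 25.8% of the 97, and those called higher 11.3%. Among the 5390 bright genes 18.3% were higher and 19.8% lower. The median over the 76 subunits was -0.096 on the log2 scale, against 0.018 over all genes. The differences were small. None of the 97 reached the thresholds of the methods (1.29% of all genes did), and the subunits ran from -0.60 to 0.625. The count of 36 ranged from 28 to 47 with each array left out in turn, and the split became 6 higher and 22 lower with the 75th percentile scaling, which itself shifted the median of all genes to 0.108, with the subunits' median at -0.134.

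Within single populations fewer members passed. In Flk1+ cells 2 were higher and 3 lower (6.98% of all genes changed, 3.34% higher and 3.63% lower). In HE1 5 were higher and 5 lower (9.84% of all genes, 4.35% higher and 5.48% lower). In HE2 2 were higher and 8 lower (5.68% of all genes, 2.34% higher and 3.34% lower). In progenitors 7 were higher and 4 lower (13.1% of all genes, 6.18% higher and 6.94% lower). The shares of members changed, 5.15%, 10.3%, 10.3% and 11.3%, were thus near or below those of all genes except in HE2. For single populations the shares were not set against the bright genes, so the share in HE2 is compared with all genes only. By the thresholds of the methods 0 members changed in Flk1+ cells (1.65% of all genes), 1 in HE1 (Cox6b2; 2.11%), 1 in HE2 (Cox6b2; 1.94%) and 1 in progenitors (Cox6a2; 4.11%). The subunits' median differences were -0.0575, -0.125, -0.13 and -0.03 in that order, and the last changed sign, to 0.06, with the 75th percentile scaling. That scaling gave 0 higher and 2 lower in Flk1+ cells, 1 higher and 3 lower in HE1, 0 higher and 2 lower in HE2 and 3 higher and 0 lower in progenitors.

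Single arrays moved these counts as well. In Flk1+ cells the 5 became 2 without replicate 2 of either genotype. In HE1 the 10 became 3 without either Sp1+/+ array, 4 without Sp1-/- replicate 2 and 22 without Sp1-/- replicate 1. In HE2 they became 2 without replicate 1 of Sp1+/+ or replicate 2 of Sp1-/- and 3 without either of the others. In progenitors the 11 became 3 without Sp1+/+ replicate 1, 4 without Sp1-/- replicate 1 and 6 without replicate 2 of either genotype.

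**Figure D3:**
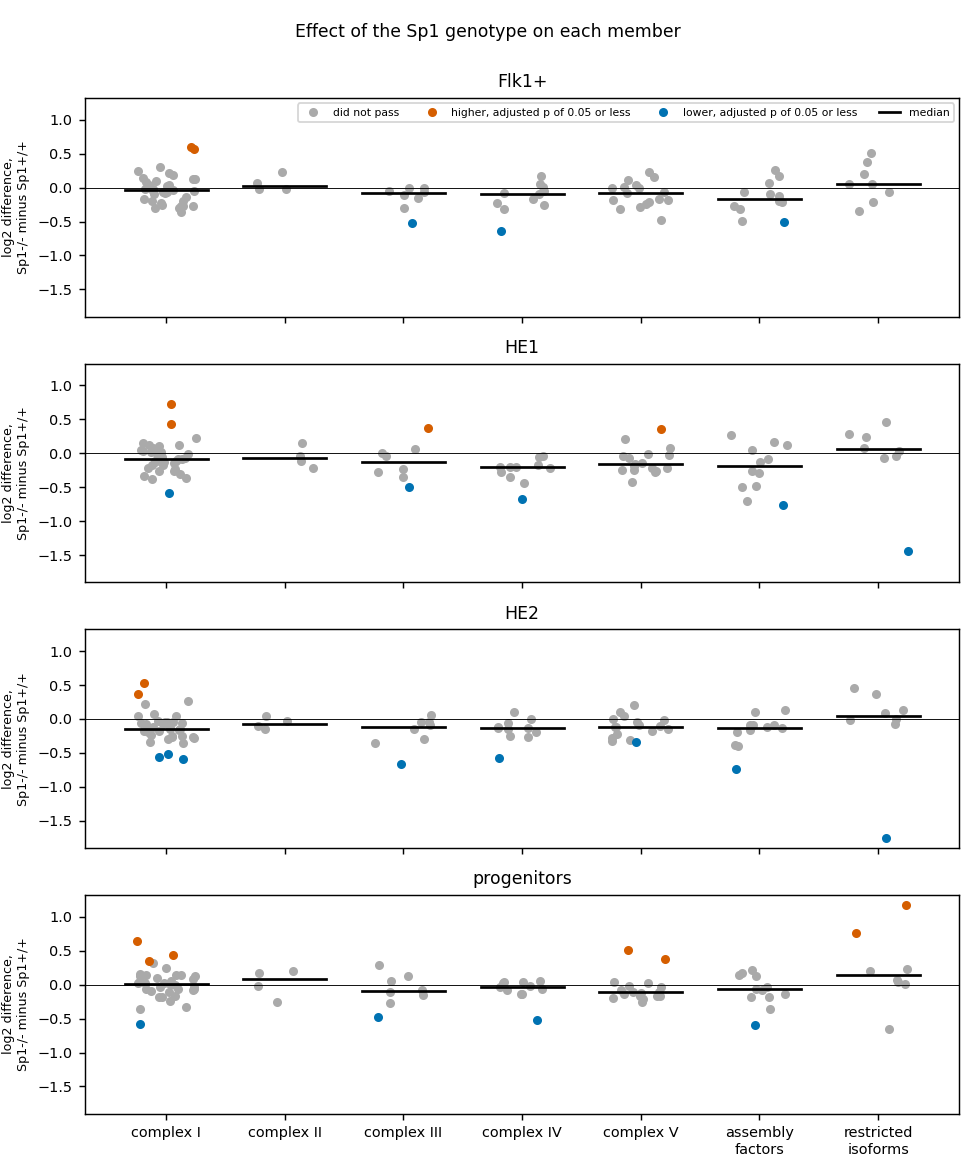
Log2 difference between Sp1-/- and Sp1+/+ cells (vertical axis) of each member, by complex and role (horizontal axis), in each population; each point is 1 gene (96 of the 97 members, without Cox7a2l), orange and blue points passed the test and black bars are medians. Most points lie within 0.5 of 0, and the farthest is Cox6b2 in HE2.

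Without regard to the test, the Sp1-/- arrays lay below the Sp1+/+ arrays with no overlap for 39 members in Flk1+ cells (23.8% of all genes), 37 in HE1 (22.1%), 46 in HE2 (21.3%) and 36 in progenitors (28.4%), of 97. They lay above for 17 (27.8% of all genes), 16 (22.9%), 10 (24.1%) and 29 (34.1%) in that order. These counts in single populations were not set against the bright genes. Arrays of the 2 genotypes did not overlap, with Sp1-/- lower, in every one of the 4 populations for 13 members (5.46% of all genes), and with Sp1-/- higher for 6 (4.43% of all genes). These were 13.4% and 6.19% of the 97 members, against 9.76% and 8.33% of the 5390 bright genes, so that the share of members higher throughout was below that of the bright genes. Those lower throughout were Cox4i1, Uqcr10, Uqcrc2, Uqcrfs1, Ndufa8, Ndufa13, Ndufb3, Ndufb7, Ndufb9, Atp5g1, Atp5h, Atp5l and Sdhaf4, and those higher throughout were Ndufv3, Ndufc2, Ndufab1, Atp5e, Cox4i2 and Cox7a2l. By the test, 4 members were called in the same direction in all 4 populations (Cox4i1, Uqcr10, Ndufv3 and Ndufc2) and 1, Sdhaf4, in 3, while 79 were called in none. The share of all genes called in as many populations was not set beside these counts, so whether they are unusual for this array is not known. All 5 of these members also passed in the average under each of the other background corrections, scalings, filters and fits run. With the 75th percentile scaling, calls in single populations were lost for Uqcr10 in all 4, Ndufv3 in Flk1+ cells, HE1 and HE2, Ndufc2 in Flk1+ cells and HE2, Cox4i1 in HE1 and progenitors, and Sdhaf4 in HE2 and progenitors. In fits to the arrays of a single comparison, none of their calls in Flk1+ cells, HE1 or HE2 passed and all of those in progenitors did. The offset of 16 given in the methods for the background correction ended those of Ndufc2 in HE2 and Sdhaf4 in progenitors.

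Cox4i1 encodes the common isoform of subunit 4, a regulatory subunit of cytochrome c oxidase that takes part early in its assembly, and was the complex IV subunit with the largest difference. On the Sp1+/+ arrays it was at 16.75 and 16.82 in Flk1+ cells, 16.96 and 17.13 in HE1, 17.08 and 17.06 for HE2 and 16.95 and 16.93 for progenitors. On the Sp1-/- arrays it was at 16.09 and 16.2 in Flk1+ cells, 16.47 and 16.28 in HE1, 16.48 and 16.52 for HE2 and 16.4 and 16.45 for progenitors. The highest Sp1-/- array lay below the lowest Sp1+/+ array. Averaged over populations the level was 1.51-fold lower (log2 difference -0.60 ± 0.046 SE, adjusted p = 5.604e-06), and its call held with each array left out, in the average and in each population. It was the only 1 of the 11 complex IV subunits that passed in the average. Cox8a, at 16.96 to 17.37 over all arrays, differed by -0.01 (adjusted p = 0.8702), Cox6a1 by -0.12 (adjusted p = 0.1468), Cox6b1 by -0.20 (adjusted p = 0.117) and Cox7a2 by -0.13 (adjusted p = 0.3652).

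Cox4i2, the isoform of subunit 4 known from lung and from low oxygen, was higher in Sp1-/- cells. It was at 9.77 and 9.6 in Sp1+/+ Flk1+ cells against 10.34 and 10.05 in Sp1-/-, and at 9.24 and 9.45 in Sp1+/+ progenitors against 10.16 and 10.06. The arrays did not overlap in HE1 (9.42 and 9.51 against 9.94 and 9.57) or in HE2 (9.53 and 9.44 against 9.86 and 9.86). The average difference was 0.485 ± 0.069 SE (1.40-fold, adjusted p = 0.0004146), and progenitors alone passed on their own (1.70-fold, adjusted p = 0.003814), a call lost without Sp1+/+ replicate 1. Levels of the 2 isoforms come from different probes and cannot be set against each other.

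**Figure D4:**
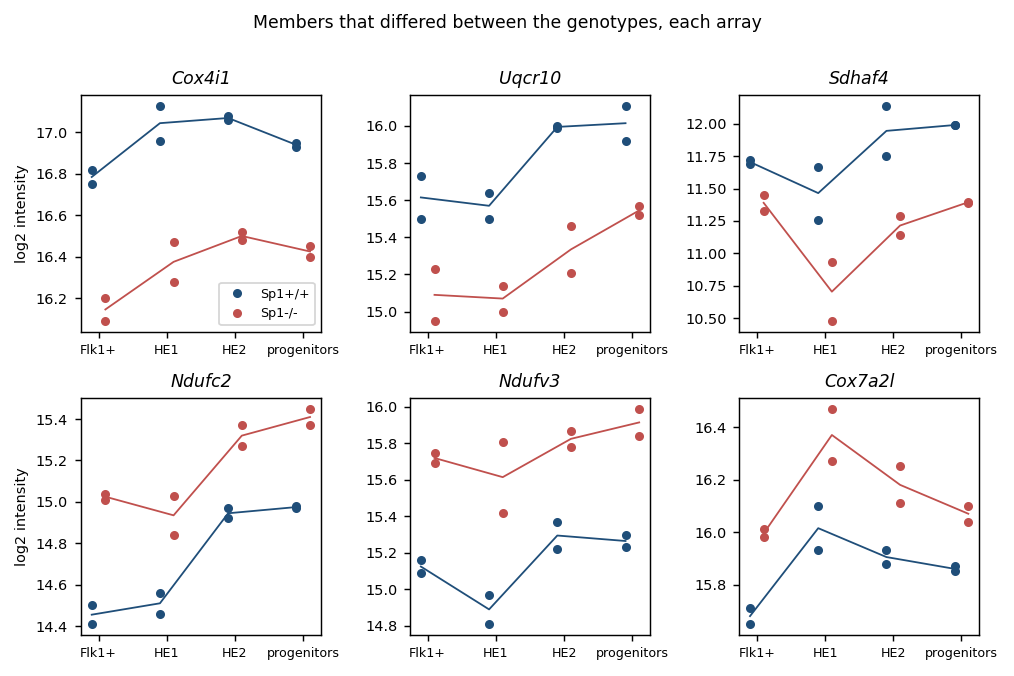
Log2 intensity (vertical axis, a separate scale in each panel) of 6 members in the 4 populations (horizontal axis); each point is 1 array, blue Sp1+/+ and red Sp1-/-, and lines join the means of 2 arrays. Cox4i1, Uqcr10 and Sdhaf4 lie lower in Sp1-/- cells in every population, and Ndufc2, Ndufv3 and Cox7a2l higher.

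In complex III, 1 subunit was higher (12.5%) and 4 lower (50%) in Sp1-/- cells in the average, of 8, where 13.3% of all genes were higher and 13.0% lower (18.3% and 19.8% of bright genes). Uqcr10, a small accessory subunit, was at 15.5 and 15.73 in Sp1+/+ Flk1+ cells, 15.5 and 15.64 in HE1, 16 and 15.99 for HE2 and 15.92 and 16.11 for progenitors. The Sp1-/- arrays, in the same order, were at 15.23 and 14.95, 15.14 and 15, 15.46 and 15.21, and 15.57 and 15.52. It was lower in each population and 1.45-fold lower in the average (log2 difference -0.54 ± 0.065 SE, adjusted p = 0.0001337), and 2 dimmer probes of the gene gave differences between -0.35 and -0.73. The average passed with any array left out. In single populations its calls rested on both replicates: without 1 array the highest adjusted p was 0.277 in Flk1+ cells (replicate 2 of either genotype), 0.199 in HE1 (either Sp1+/+ array or Sp1-/- replicate 2), 0.118 in HE2 (either Sp1+/+ array or Sp1-/- replicate 2) and 0.215 in progenitors (any array). The Rieske iron-sulfur protein Uqcrfs1 was lower by 1.23-fold in the average (adjusted p = 0.01249). Uqcr11 was the subunit that was higher (log2 difference 0.18 ± 0.052 SE, adjusted p = 0.02332). It lost its call without replicate 1 of progenitors or Flk1+ cells of either genotype or without Sp1+/+ HE2 replicate 2 (highest adjusted p = 0.0571), and did not pass with the 75th percentile scaling (adjusted p = 0.483).

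In complex I, 4 of 36 subunits were higher (11.1%, below the 13.3% of all genes) and 9 lower (25%, against 13.0% of all and 19.8% of bright genes). Ndufv3, an accessory subunit of the NADH-oxidising module, was at 15.09 and 15.16 in Sp1+/+ Flk1+ cells, 14.97 and 14.81 in HE1, 15.37 and 15.22 for HE2 and 15.3 and 15.23 for progenitors. In the same order the Sp1-/- arrays were at 15.75 and 15.69, 15.42 and 15.81, 15.78 and 15.87, and 15.99 and 15.84. Every Sp1-/- array lay above every Sp1+/+ array. The average was 1.54-fold higher (log2 difference 0.625 ± 0.062 SE, adjusted p = 3.55e-05), and a dimmer probe of the gene was also higher in all 4 populations, by 0.26 to 0.52. Leaving out an array lost the call in Flk1+ cells and HE2 whichever array it was (highest adjusted p = 0.112 and 0.199) and in progenitors without Sp1-/- replicate 1 (adjusted p = 0.0588), but not in HE1 or in the average.

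Ndufc2, an accessory subunit of the membrane arm, was at 14.41 and 14.5 in Sp1+/+ Flk1+ cells, 14.56 and 14.46 in HE1, 14.92 and 14.97 for HE2 and 14.98 and 14.97 for progenitors. Its Sp1-/- values were 15.01 and 15.04, 15.03 and 14.84, 15.27 and 15.37, and 15.37 and 15.45. The average was 1.37-fold higher (log2 difference 0.45 ± 0.044 SE, adjusted p = 3.09e-05). The Sp1-/- arrays of Flk1+ cells lay above the Sp1+/+ arrays of every population, and the call held in Flk1+ cells and in the average with any array left out. It was lost in HE1 without Sp1+/+ replicate 2 (adjusted p = 0.087), in HE2 without any 1 array (highest adjusted p = 0.199) and in progenitors without Sp1+/+ replicate 1 or Sp1-/- replicate 2 (highest adjusted p = 0.0621). Ndufc2 and, in complex III, Uqcrfs1 were chosen for description after their values were seen. Of the subunits that were lower, Ndufa8 differed by -0.45 ± 0.074 SE (adjusted p = 0.001076) and Ndufa13, also known as GRIM-19, by -0.42 ± 0.050 SE (adjusted p = 0.0001253). Ndufa13 was at 16.69 and 16.65 in Sp1+/+ progenitors and at 16.09 and 16.09 in Sp1-/-. Both kept their call in the average with any array left out, and Ndufa13 in progenitors too, though not there with the 75th percentile scaling (adjusted p = 0.239). Ndufa8 also passed in HE1 and HE2, but there without either Sp1+/+ array or Sp1-/- replicate 2 it did not (highest adjusted p = 0.2 and 0.29).

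The 2 members called lower that are printed first below, Uqcr10 and Sdhaf4, and the 2 called higher, Ndufv3 and Ndufc2, were the members with the same call in at least 3 populations that had a window in RefSeq's promoter table (GRCm38.p6). Their 250 bases before the transcript start are shown because Sp1 binds the GC box. Capitals mark GGGCGG or, on the other strand, CCGCCC.
Uqcr10 (chr11:4704345-4704594, minus strand): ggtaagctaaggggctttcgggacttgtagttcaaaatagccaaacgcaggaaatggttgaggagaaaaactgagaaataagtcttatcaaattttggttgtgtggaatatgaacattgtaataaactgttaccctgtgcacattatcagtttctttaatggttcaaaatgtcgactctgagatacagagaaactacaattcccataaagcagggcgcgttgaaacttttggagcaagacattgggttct
Sdhaf4 (chr1:24005641-24005890, minus strand): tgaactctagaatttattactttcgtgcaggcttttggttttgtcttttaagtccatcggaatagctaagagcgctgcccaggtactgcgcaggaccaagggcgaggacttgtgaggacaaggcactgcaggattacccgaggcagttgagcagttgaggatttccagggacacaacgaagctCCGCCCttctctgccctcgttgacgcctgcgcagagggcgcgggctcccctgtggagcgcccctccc
Ndufv3 (chr17:31519865-31520114, plus strand): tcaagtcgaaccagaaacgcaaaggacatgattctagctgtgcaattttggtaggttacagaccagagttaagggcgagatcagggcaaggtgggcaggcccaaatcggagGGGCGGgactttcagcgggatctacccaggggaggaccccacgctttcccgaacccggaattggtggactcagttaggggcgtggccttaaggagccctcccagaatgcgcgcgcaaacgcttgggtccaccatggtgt
Ndufc2 (chr7:97399753-97400002, plus strand): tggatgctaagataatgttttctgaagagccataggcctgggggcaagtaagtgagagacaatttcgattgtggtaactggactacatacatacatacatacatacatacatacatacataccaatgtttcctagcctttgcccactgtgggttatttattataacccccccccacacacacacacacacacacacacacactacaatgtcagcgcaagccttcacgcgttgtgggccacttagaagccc
Sdhaf4 and Ndufv3 each held 1 GC box, and Uqcr10 and Ndufc2 held 0. Cox4i1, which had the same call in all populations, had no window. Whether these matches bear on the differences was not tested. None of the 4 held GCGCATG (the core of the NRF-1 site), CCGGAAG (ETS factors and GABP) or AAGATGG (YY1), and CCAAT (NF-Y) occurred once each in Uqcr10, Ndufv3 and Ndufc2. Over the full windows, which run on past the start, and on either strand, the GC box was found in 47.1% of the 85 windows of 80 members and in 35.7% of all 32851 windows. Among members the shares were 45% of the 20 windows of those lower in the average, 50% of the 10 windows of those higher and 47.3% of the 55 windows of the rest. The NRF-1 core was in 17.6% of member windows against 3.91% of all, the ETS and GABP letters in 25.9% against 8.86%, the YY1 letters in 14.1% against 6.34% and CCAAT in 42.4% against 37.4%. These matches are letters only and were not tested, and the motifs searched do not overlap in their letters except by chance in a sequence. The shares were not set against windows of the bright genes, so whether they are particular to the members is not known.

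Complex II, which links the chain to the citrate cycle, had 4 members, and 0 passed in the average (2 at an unadjusted p under 0.05). Sdha, the flavoprotein, was at 13.83 to 14.36 on the Sp1+/+ arrays and at 13.65 to 14.19 on the Sp1-/- arrays, and differed by -0.125 (adjusted p = 0.1339). Sdhb, the iron-sulfur subunit, differed by -0.03 (adjusted p = 0.7355), and the membrane anchors Sdhc and Sdhd by 0.16 (adjusted p = 0.05078) and -0.03 (adjusted p = 0.7499). None of the 4 passed in a single population, with adjusted p from 0.1911 to 0.9501. A dimmer probe of Sdhb gave -0.36 in Flk1+ cells where the brighter gave -0.02. A second probe of Sdhc was nearly as bright, with a mean of 12.89 against 12.95. It gave 0.23 in Flk1+ cells and 0.1 in progenitors, but -0.09 in HE1 and -0.16 in HE2, where the brighter gave 0.15 and 0.05.

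The assembly factor Sdhaf4, which protects free Sdha and helps it to join Sdhb, was lower. It was at 11.69 and 11.72 in Sp1+/+ Flk1+ cells, 11.67 and 11.26 in HE1, 12.14 and 11.75 for HE2 and 11.99 and 11.99 for progenitors. Its Sp1-/- values were 11.33 and 11.45, 10.93 and 10.48, 11.29 and 11.14, and 11.39 and 11.4. The genotypes did not overlap in any population, and the average was 1.52-fold lower (log2 difference -0.60 ± 0.087 SE, adjusted p = 0.0004639), with any array left out. Its calls in HE1, HE2 and progenitors were lost without single arrays: Sp1+/+ replicate 1 or Sp1-/- replicate 2 in HE1 (highest adjusted p = 0.163), all but Sp1+/+ replicate 2 in HE2 (0.194) and any array in progenitors (0.191). Of the 12 assembly factors 1 was higher (8.33%, below the 13.3% of all genes) and 5 lower in the average (41.7%, against 13.0% of all and 19.8% of bright genes). The higher one, Ndufaf7 (log2 difference 0.17 ± 0.056 SE, adjusted p = 0.04264), kept its call in 4 of the 16 fits that left out an array, and the highest adjusted p was 0.0984. Ndufaf2 was lower in Flk1+ cells, at 12.68 and 12.83 against 12.37 and 12.14 (adjusted p = 0.01589), a call lost without replicate 2 of either genotype (highest adjusted p = 0.145).

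In complex V, 2 of 17 subunits were higher (11.8%, below the 13.3% of all genes) and 5 lower (29.4%, against 13.0% of all and 19.8% of bright genes). Both that were higher belong to the central stalk of the F1 part, Atp5d (delta) and Atp5e (epsilon). Atp5e was at 15.74 and 15.76 in Sp1+/+ progenitors and at 16.17 and 16.08 in Sp1-/-, and differed by 0.275 ± 0.052 SE in the average (1.21-fold, adjusted p = 0.002434). Atp5d was at 14.51 and 14.53 against 15.12 and 14.95 in progenitors (1.43-fold, adjusted p = 0.00796), a call lost without replicate 1 of either genotype (highest adjusted p = 0.0828) or with the 75th percentile scaling (0.26), and at 14.65 and 14.75 against 14.87 and 14.74 in HE2, where the arrays overlapped. Neither passed in the average with the 75th percentile scaling (adjusted p = 0.102 for Atp5e and 0.619 for Atp5d). The 5 that were lower were Atp5g1, which encodes the c subunit of the membrane ring, Atp5h, Atp5k, Atp5l and Atp5o. Atp5g1 had the largest difference, -0.32 ± 0.067 SE (1.25-fold, adjusted p = 0.00519), and passed with any array left out. Its levels in Flk1+ cells were 15.91 and 16.23 in Sp1+/+ and 15.74 and 15.43 in Sp1-/-.

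Of the 8 restricted isoforms, 2 were higher and 1 lower in the average, where 13.3% of all genes were higher and 13.0% lower. Cox6b2, the testis isoform of subunit 6b, had the largest difference of all members. It was at 11.29 and 11.47 in Sp1+/+ Flk1+ cells against 11.57 and 11.07 in Sp1-/-, where the arrays overlapped. In HE1 it was at 11.45 and 11.65 against 9.3 and 10.93, and in HE2 at 11.23 and 11.56 against 9.58 and 9.7. In progenitors the values were 11.63 and 11.83 against 11.14 and 11.01. The difference passed in HE1 (2.70-fold lower, adjusted p = 0.03987) and in HE2 (3.38-fold lower, adjusted p = 0.02258) but not in progenitors (1.57-fold, adjusted p = 0.329). The Sp1-/- HE1 arrays were 1.63 apart on the log2 scale, and without Sp1-/- replicate 1 the difference in HE1 was -0.62 and did not pass. The call was also lost without either Sp1+/+ array (highest adjusted p = 0.168). In HE2 the call was lost without any 1 array (highest adjusted p = 0.15), whereas the average, 1.97-fold lower (adjusted p = 0.003349), passed with each array left out.

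Cox6a2, the heart and skeletal muscle isoform of subunit 6a, was near the dim end, at 6.69 and 6.68 in Sp1+/+ progenitors against 7.91 and 7.81 in Sp1-/-. It was 2.26-fold higher there (adjusted p = 0.01443), a call lost without any 1 array (highest adjusted p = 0.0938) or with the 75th percentile scaling (0.0676), and overlapped between genotypes in HE1 (6.65 and 7.06 against 6.73 and 7.47) and in HE2 (6.24 and 7.03 against 7.19 and 6.99). Of the muscle markers, Tnni1 was higher in Sp1-/- progenitors, at 12.49 and 12.54 against 10.03 and 10.02, whereas the median of the 7 was 8.81 and 8.42 in Sp1+/+ and 8.06 and 7.55 in Sp1-/- progenitors. Of the dim isoforms, Cox8b, Cox8c and Cox7b2 did not pass in the average. Cox7a1 and Ndufa4l2 did not pass in the average (adjusted p = 0.8395 and 0.199). Cox7a2l, the supercomplex factor, was higher by 0.29 ± 0.047 SE (1.22-fold, adjusted p = 0.001033), at 15.65 and 15.71 against 16.01 and 15.98 in Flk1+ cells and at 15.87 and 15.85 against 16.1 and 16.04 in progenitors, and its 2 dimmer probes were higher in all populations, by 0.1 to 0.67.

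Whether the effect of the genotype in progenitors differed from that in Flk1+ cells was tested as an interaction. By limma 0 of 97 members passed, where 5.11% of all genes passed (2.21% higher and 2.90% lower). None reached the thresholds of the methods either (3.81% of all genes). The lowest p-values were those of Ndufaf4 (log2 difference of differences 0.335 ± 0.135 SE, adjusted p = 0.2125), Ndufaf2 (0.325 ± 0.148 SE, adjusted p = 0.2803) and Cox6a2 (0.795 ± 0.38 SE, adjusted p = 0.3106). The fit to the arrays of these 4 groups alone called 1 member. The share of all genes called in that fit was not set beside this count.

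Genes that act beside the chain were counted from fixed lists. Of 13 regulators of mitochondrial gene expression, 1 was higher and 4 lower in Sp1-/- cells in the average (7.69% and 30.8%, against 13.3% and 13.0% of all genes and 18.3% and 19.8% of bright genes). Esrra, a nuclear receptor, was higher (log2 difference 0.42 ± 0.056 SE, adjusted p = 0.000276), and the lower ones were Nrf1 (-0.20, adjusted p = 0.01441), Tfam, which packages mitochondrial DNA (-0.20, adjusted p = 0.03202), Tfb2m (-0.38, adjusted p = 0.005846) and the coactivator Ppargc1b (-0.35, adjusted p = 0.004334). In HE1 Tfam was at 12.17 and 12.12 in Sp1+/+ and at 11.74 and 11.57 in Sp1-/- cells (adjusted p = 0.031). The average of Tfam joined -0.49 in HE1 with -0.025 in Flk1+ cells, -0.09 in HE2 and -0.205 in progenitors. For Nrf1 the differences were -0.3 in Flk1+ cells and -0.505 in HE1, but 0.025 in HE2 and -0.01 in progenitors. From HE1 to HE2, 3 of the 13 regulators rose in Sp1+/+ cells (23.1%) and 6 in Sp1-/- cells (46.2%), with 0 falling in either, where 5.67% and 10.5% of all genes and 12.2% and 19.3% of bright genes rose. Of 34 assembly factors and carriers outside the name rule 4 were higher (11.8%) and 11 lower (32.4%) in the average, against the same shares of all and of bright genes. The lower ones included Taco1, a translational activator of a mitochondrially encoded complex IV subunit (-0.585 ± 0.042 SE, adjusted p = 3.395e-06), and cytochrome c, Cycs (-0.21, adjusted p = 0.0278). Of 13 citrate cycle genes 1 was higher (7.69%) and 4 lower (30.8%). From HE1 to HE2, 12 of the 34 (35.3%) and 3 of the 13 (23.1%) rose in Sp1+/+ cells and 14 (41.2%) and 8 (61.5%) in Sp1-/- cells, beside those same shares of all and of bright genes, and 0 fell in either.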

How the data were processed

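RNA of the sorted populations was labelled with Cy3 and hybridised to Agilent SurePrint G3 Mouse arrays, scanned with Agilent Feature Extraction 10.7.1.1. The authors background-corrected the median spot intensity by normexp, quantile-normalised it with limma and deposited log2 values. Their methods give an offset of 16, but recomputation from the deposited scanner intensities matched the log2 values within 0.005 with an offset of 50 and differed by up to 1.63 with 16; the larger offset compresses differences of dim probes, so fold changes of dim genes are understated. Outlier spots (95 to 182 per array) were left out and spots of a probe averaged.

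Probes were named through RefSeq's gene table (GRCm38.p6), in which the accessions of 20869 of 37932 targets and the symbols of 12 more were found. The probe brightest on average stood for a gene (24 members have several), and processed pseudogenes of several members may share signal. A log2 of at least 6 on at least 1 array was required, which 55595 of 55681 probes met. limma 3.58.1 (R 4.3.3) fitted 8 group means to all 16 arrays, with Benjamini-Hochberg adjustment over 37149 genes and a threshold of 0.05. Values are log2 intensities, differences are log2, and SE is that of the moderated fit. One legend speaks of technical replicates; p-values measure the spread between these arrays only. Named genes are the complex II subunits, the listed isoforms, the largest changes per complex, genotype comparison and Sp1+/+ step, and the 3 lowest interaction p-values. The members and lists were chosen with earlier results of these data known. Alternatives were other background corrections and scalings, filters, probe averaging, thresholds, a replicate block, a t-test (named in the methods, but not for the arrays, for which they give limma) and leaving out arrays. The code was tested on simulated data.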

Additional observations from a re-analysis of the deposited data

How the results depend on the processing

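Of the recomputed differences of named members, 5354 kept their side of the threshold, 284 lost and 50 gained a call, and 0 called ones reversed. Otherwise the counts of members changed kept within 1.5 times under no filter, the filter on probes well above background and the replicate block. Row and replicate number coincided on the slides, but the replicates' deviations correlated from -0.174 to 0.503 between groups (over 0.1 in 11 of 28 pairs), so the numbers were not taken to pair the arrays. With the replicate block 39 members changed in the average (36 without), 6, 8, 9 and 11 in Flk1+ cells, HE1, HE2 and progenitors, and 16, 22 and 0 in the Sp1+/+ and 27, 22 and 6 in the Sp1-/- steps. With the offset of 16 or no background correction, 6 members changed between genotypes in HE2 (10), and 3 and 2 from HE2 to progenitors in Sp1-/- cells (5). With the 75th percentile scaling the counts were 2, 4, 2 and 3 between genotypes in the 4 populations, 7 and 8 in the first and second Sp1+/+ steps and 14, 11 and 3 in the Sp1-/- steps. The mean over probes gave 9 in Flk1+ cells. Fits to the arrays of a comparison alone, which have fewer arrays, gave 0, 0 and 1 between genotypes in Flk1+ cells, HE1 and HE2, 7 and 1 in the first and second Sp1+/+ steps, 9 and 1 in the Sp1-/- steps and 1 in the interaction. At an adjusted p of 0.01 the counts were 2, 2, 2, 6 and, in the average, 21, and 8, 6, 12, 9 and 0 in the steps; by the methods' thresholds they were 0, 1, 1, 1 and 0, and 3, 1, 3, 1 and 1. A t-test, which the methods name but not for the arrays in particular, gave 2, 0, 2 and 7 members at an unadjusted p of 0.01 and 0 in every population after Benjamini-Hochberg. Leaving out each array in turn gave 2 to 5 members in Flk1+ cells, 3 to 22 in HE1, 2 to 3 in HE2, 3 to 6 in progenitors, 28 to 47 in the average, 10 to 11, 5 to 10 and 0 to 1 in the Sp1+/+ steps, and 14 to 31, 11 to 28 and 0 to 2 in the Sp1-/- steps. The cause of these shifts was not tested.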
